A study of Mus musculus with 22 samples.

Results

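The genes described here are Duxbl1, Duxbl2 and Duxbl3, the 3 annotated mouse copies of Duxbl, taken from the gene rows of both deposited expression tables by their GENCODE M21 symbols, 3 of 55487 genes in all. RNA came from Dux-/- mouse embryonic stem cells (mESCs), which lack Dux in every group, the controls included. The cells were grown in 2iLIF, left for 24 hours after plating and then given doxycycline at 0.25 ug/mL for 12 hours, and 500 ng of total RNA per sample went into stranded poly(A) libraries. Each line carried mCherry, a red fluorescent protein, alone or joined to full-length DUX (FL Dux) or to a DUX derivative. The chimera table held 2 libraries each of mCherry, FL Dux, C1+14, C3+14, C1C3a, C1C3b and C1C3c. The deletion table held the same 2 FL Dux libraries beside 2 each of C12345delt14, deltC12345+14 and deltC12345delt14. The labels do not spell out C1 to C5, 14, delt or the letters a, b and c, and do not say whether a line is 1 clone. C3delt14, which the series also lists, was not analysed here.

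DUX binds DNA through a pair of homeodomains and activates transcription of 2-cell embryo genes, and Duxbl (Dux B-like) is one of the genes it induces. The Duxbl protein carries such a pair too, and it is known as a factor that curbs the 2-cell programme after DUX has started it. A homeobox is the stretch of coding sequence that encodes a homeodomain.

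All 3 copies lie on the plus strand of chromosome 14 (GRCm38). Duxbl1 (ENSMUSG00000048502) spans chr14:25978577-25990088, Duxbl2 (ENSMUSG00000072675) chr14:26118349-26129763 and Duxbl3 (ENSMUSG00000072672) chr14:26257962-26269436. Neighbouring starts are 139772 and 139613 bases apart. In each copy the 5-exon transcript Duxbl1-201, Duxbl2-201 or Duxbl3-201 holds a complete coding sequence of 1050 bases, and no base of it differed between any pair of copies. A shorter complete coding sequence of 603 bases is annotated for a second transcript of each copy. The homeoboxes are therefore printed once, because 1 sequence stands for all 3 genes. The capitals mark TGGTTTCA, which in both begins at residue 48 of the 60-residue homeodomain, within the third helix, the one that contacts DNA.
Homeobox 1: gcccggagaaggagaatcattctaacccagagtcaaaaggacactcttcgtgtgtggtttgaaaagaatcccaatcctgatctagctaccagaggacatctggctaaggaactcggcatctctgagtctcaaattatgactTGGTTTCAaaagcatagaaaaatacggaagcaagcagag
Homeobox 2: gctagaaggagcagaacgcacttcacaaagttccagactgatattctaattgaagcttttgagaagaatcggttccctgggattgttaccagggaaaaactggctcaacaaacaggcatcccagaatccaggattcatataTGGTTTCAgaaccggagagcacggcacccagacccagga
Homeobox 1 is coding bases 40 to 219 and homeobox 2 is coding bases 280 to 459. The 2 homeoboxes matched each other at 98 of 180 bases (54.4%), so they differ far more from each other than the gene copies do.

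Outside the coding sequence the copies can be told apart at a few places. The first 30 bases of the first exon, all before the start codon, are shown because they hold such a place, with the differing base in capitals and positions counted from 1 at the 5′ end.
Duxbl1: attgctgtgCgccccaggtcaggcagaata
Duxbl2: attgctgtgGgccccaggtcaggcagaata
Duxbl3: attgctgtgGgccccaggtcaggcagaata
Duxbl2 and Duxbl3 carry C10G against Duxbl1. Every stretch of 50 bases in the annotated transcripts was compared to see how far reads could separate the copies. Of such stretches 6.48% in Duxbl1 and 6.51% in Duxbl3 occurred in no other Duxbl gene, and 0 of 4868 in Duxbl2 did. With stretches of 150 bases these shares were 19.4% in Duxbl1, 6.47% in Duxbl3 and again 0% in Duxbl2. No 50-base stretch of a Duxbl gene occurred in a gene outside the family.

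The first exon of each copy also holds a match to AATCNAATC, searched on both strands as a motif of factors with a pair of homeodomains. It is printed here in capitals with its flanking bases, and in Duxbl1 it starts at position 353 of the transcript.
Duxbl1 site: ggaacctcttAATCCAATCaagttgactat
The same 30 bases stand at chr14:25983347-25983376 in Duxbl1, chr14:26122941-26122970 in Duxbl2 and chr14:26262590-26262619 in Duxbl3. In the first 531 transcript bases of 21340 genes this motif occurred in 169 (0.792%). GATTNAATC, the other motif of such factors searched, occurred in 91 genes (0.426%) and not in that window of a Duxbl gene. A match describes the letters only, and which of these motifs the DUX used here binds was not tested.

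The rows of Duxbl2 and Duxbl3 were closer to each other than separately counted reads would be. In FL Dux the libraries had 1525 and 1690 reads for Duxbl1, 1677 and 1862 for Duxbl2, and 1648 and 1846 for Duxbl3. Duxbl2, which has no 50-base stretch of its own, thus had the most reads of the 3 in both. Over the 20 libraries the squared difference between Duxbl2 and Duxbl3 reads was on average 0.150 of their sum, where separately counted reads of equal genes would give 1. It was 3.66 for Duxbl1 with Duxbl2 and 2.85 for Duxbl1 with Duxbl3, so the Duxbl1 row did differ from both. Their ratio lay between 0.973 and 1.00 in libraries with at least 50 reads in each. Duxbl2 had between 1.07 and 1.13 times the reads of Duxbl1 in those libraries. How reads that match several genes were counted is not given in the sources used here. The 3 rows are therefore given side by side but are not 3 independent measurements, and their sum may hold the same reads more than once. How much each copy contributed was not tested.

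**Figure D1:**
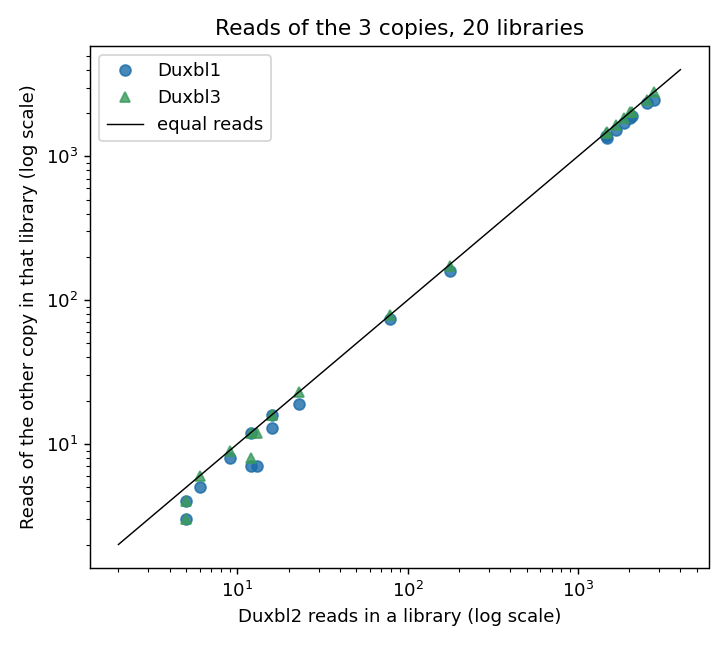
Reads of Duxbl1 (circles) and Duxbl3 (triangles) against reads of Duxbl2 in each of the 20 libraries, both axes on a log scale, with the line of equal reads. Points lie on or below the line over the whole range up to 2803 reads of Duxbl2, the Duxbl3 points closest to it.

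Library totals ran from 21059953 to 40448890 reads, and 1 read was worth 0.620 to 1.81 normalised reads, so that levels near 10 rest on few reads. Libraries fell into 2 kinds by the percentage of their reads that fell in 1605 genes whose sequence recurs in at least 20 genes. In 14 libraries (type A) this was 1.66% to 2.58% and in 6 (type B) 0.295% to 0.418%. Both C3+14 and both mCherry libraries, deltC12345+14 replicate 2 and deltC12345delt14 replicate 1 were type B, and all others type A. The Dux genes Duxf3 and Gm4981 had 0 reads in all 20 libraries, so construct expression could not be checked through them. The 8 embryonic stem cell markers (Pou5f1, Sox2, Nanog, Zfp42, Esrrb, Klf4, Tfcp2l1 and Tdgf1) were detected in every group, with summed levels from 29445 to 125410 normalised reads, while the 6 fibroblast markers summed to 33.9 to 266, with Dcn at 3 reads or fewer in both libraries of every group except C1C3b.

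Duxbl RNA rose in 4 of the 6 DUX constructs of the chimera table. The sum of the 3 rows was 193-fold the mCherry level in FL Dux, 201-fold in C3+14, 237-fold in C1C3a and 9.46-fold in C1C3b. The mCherry libraries had 16 and 13 reads of Duxbl1, 16 and 16 of Duxbl2, and 16 and 16 of Duxbl3, which is the background without DUX. Against this, C3+14 had 1346 and 1373 reads of Duxbl1, 1473 and 1466 of Duxbl2, and 1465 and 1463 of Duxbl3. C1C3a had 2364 and 1910 reads of Duxbl1, 2533 and 2069 of Duxbl2, and 2464 and 2047 of Duxbl3. Every library of FL Dux, C3+14 and C1C3a was far above both mCherry libraries for each copy. C1C3b was in between, with 160 and 74 reads of Duxbl1, 177 and 79 of Duxbl2, and 173 and 79 of Duxbl3, and its replicates were further apart than those of the 3 stronger constructs. In bulk RNA, fewer cells with Duxbl RNA and less of it per cell cannot be told apart.

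On the authors' normalised scale the sum of the 3 rows was 6786 ± 509 in FL Dux, 7073 ± 148 in C3+14, 8339 ± 271 in C1C3a, 333 ± 162 in C1C3b and 35.1 ± 4.90 in mCherry (SD, n = 2). As a share of the FL Dux mean this was 104% ± 2.19 for C3+14, 122.9% ± 3.99 for C1C3a, 4.90% ± 2.39 for C1C3b and 0.518% ± 0.0722 for mCherry. Per kilobase of exon over all annotated transcripts of a gene, FL Dux had mean levels of 445 for Duxbl1, 482 for Duxbl2 and 444 for Duxbl3. Duxbl1 and Duxbl3 were nearly level on this scale, although Duxbl1 had fewer reads. That rests on the lengths used, 4781, 4866 and 5205 bases. The transcripts with 1050 coding bases have 2266, 2312 and 2336 in the same order. The sharing of reads described above applies here too, so the copies are not ranked.

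**Figure D2:**
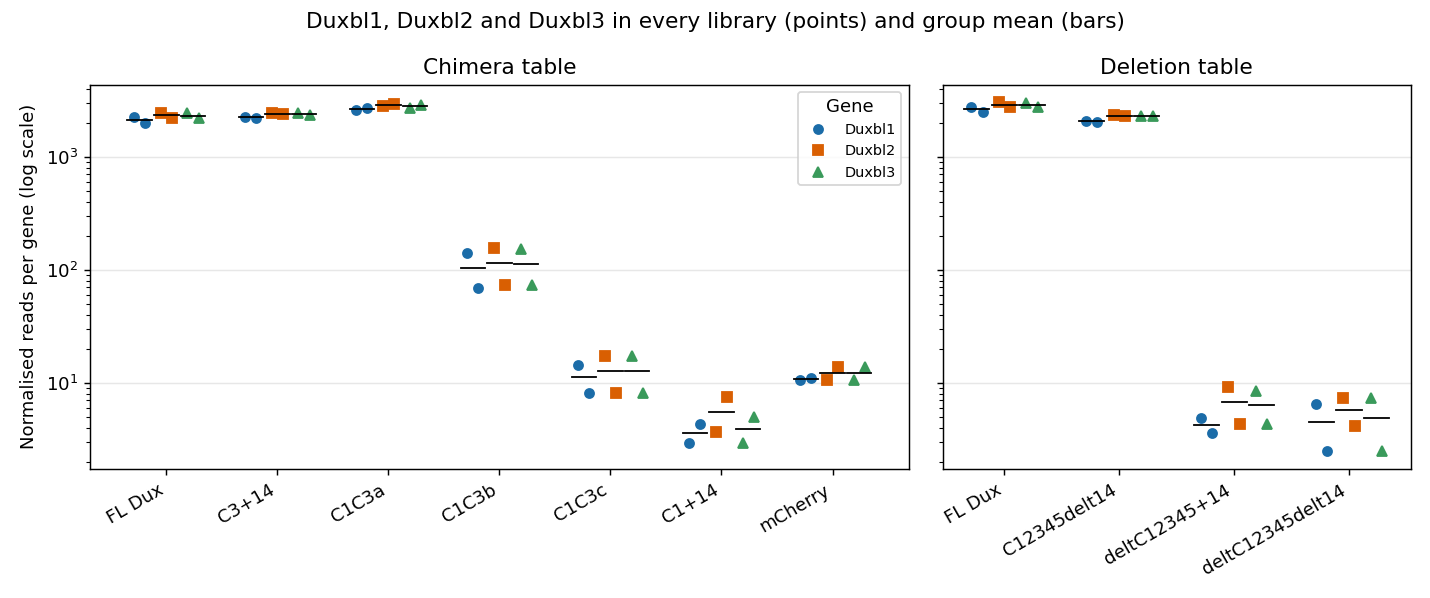
Normalised reads per gene on a log scale for Duxbl1, Duxbl2 and Duxbl3 in each library (points) with the mean of each group (bars), by construct, in the chimera table (left) and the deletion table (right). FL Dux, C3+14, C1C3a and C12345delt14 lie at 2012 or above, C1C3b between 69.5 and 155, and all other groups at 17.3 or below.

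Against mCherry, all 3 genes were called higher in FL Dux, where 24.5% of 21584 tested genes were called higher, and likewise in C3+14 (29.6%), C1C3a (27.4%) and C1C3b (27.6%). Called means a limma p, adjusted by Benjamini-Hochberg, below 0.05 together with a difference of 1 or more in either direction on log2(value + 1). The log2 differences in FL Dux were 7.49 for Duxbl1 (SE 0.33, limma adjusted p 4.31e-10), 7.49 for Duxbl2 (SE 0.39, 2.73e-09) and 7.47 for Duxbl3 (SE 0.37, 1.53e-09). In C3+14 they ran from 7.53 to 7.56 and in C1C3a from 7.75 to 7.81. C1C3b had 3.07 for Duxbl1 (SE 0.33, limma adjusted p 4.04e-06), 3.05 for Duxbl2 (1.92e-05) and 3.04 for Duxbl3 (1.25e-05). The median over all tested genes was 0.09 in FL Dux, 0.23 in C3+14, 0.12 in C1C3a and 0.15 in C1C3b. C3+14 and mCherry are both type B, so this rise stands within 1 library type. Whether separate replicates are separate cultures is not stated in the labels, so p-values measure the spread between these libraries.

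FL Dux, C3+14 and C1C3a could not be ranked by Duxbl. None of the 3 genes was called between FL Dux and C3+14, where 26.3% of genes were called in either direction, and the log2 differences from -0.07 to -0.05 had 95% intervals within -0.89 to 0.79. Between FL Dux and C1C3a (15.6% called) they were -0.32 to -0.28, with intervals within -1.13 to 0.54. Between C3+14 and C1C3a (14.9% called) they were -0.25 to -0.22, with intervals within -1.08 to 0.59. The FL Dux and C3+14 libraries interleave for Duxbl1, at 2247 and 2012 against 2255 and 2224 normalised reads, while both C1C3a libraries, at 2617 and 2704, are above all of these. The intervals allow a difference of about 2-fold between any pair of the 3, so equal levels are not shown. C3+14 is type B, while FL Dux and C1C3a are type A. In comparisons with C3+14, library type and construct therefore cannot be told apart.

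C1C3b stood clearly below those 3 constructs and above the other 3 groups. All 3 genes were called higher in FL Dux than in C1C3b (19.7% of genes called higher), in C3+14 (16.5%) and in C1C3a (17.3%), by 4.41 to 4.43, 4.48 to 4.49 and 4.71 to 4.74 on the log2 scale. For Duxbl1 the level in FL Dux was 20.3-fold that in C1C3b, 2129 ± 166 against 105 ± 50.1 normalised reads (SD, n = 2). All 3 were also called higher in C1C3b than in C1C3c (7.66% called higher), by 3.05 to 3.08, and than in C1+14 (17.9%), by 4.11 to 4.47. FL Dux, C1C3a, C1C3b, C1C3c and C1+14 are of 1 library type, A, so the comparisons among these 5 do not cross types.

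In C1C3c the Duxbl genes were not called apart from mCherry. Its libraries had 19 and 12 reads of Duxbl1, 23 and 12 of Duxbl2, and 23 and 12 of Duxbl3, on either side of the mCherry values once normalised. The sum was 36.7 ± 17.4 normalised reads against 35.1 ± 4.90 in mCherry (SD, n = 2). The limma test called 0 of the 3, against 28.8% of genes called in either direction. The log2 differences were between -0.01 and -0.00, with 95% intervals within -0.85 to 0.82, and 1 group is type A and the other type B. All 3 genes were called higher than in C1C3c in FL Dux (22.8% of genes called higher), C3+14 (21.8%) and C1C3a (22.2%), by 7.48 to 7.81.

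C1+14 had the lowest Duxbl reads of the chimera table, 4 and 7 for Duxbl1, 5 and 12 for Duxbl2, and 4 and 8 for Duxbl3. Both libraries were below both mCherry libraries for every copy on the normalised scale. Duxbl1 was called lower than in mCherry by limma, at -1.37 (SE 0.33, adjusted p 0.00659), and so was Duxbl3, at -1.43 (SE 0.37, 0.00997), while Duxbl2, at -1.06 (SE 0.39, 0.0536), was not, and 5.95% of all genes were called lower. C1+14 is type A and mCherry type B, and library type and construct cannot be told apart here. Within type A, C1C3c was above C1+14 by 1.37 for Duxbl1 (limma adjusted p 0.0153) and 1.42 for Duxbl3 (0.0219), both called, and by 1.04 for Duxbl2 (0.0909), with 5.37% of genes called higher. Each of these pairs of calls became 0 with edgeR or with a pseudocount of 8, and leaving out C1+14 replicate 1 left 1 of the calls against mCherry and 0 of those against C1C3c. Against C1+14 all 3 genes were called higher in FL Dux (21.5% of genes), C3+14 (25.9%) and C1C3a (23.4%), by 8.54 to 9.18.

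**Figure D3:**
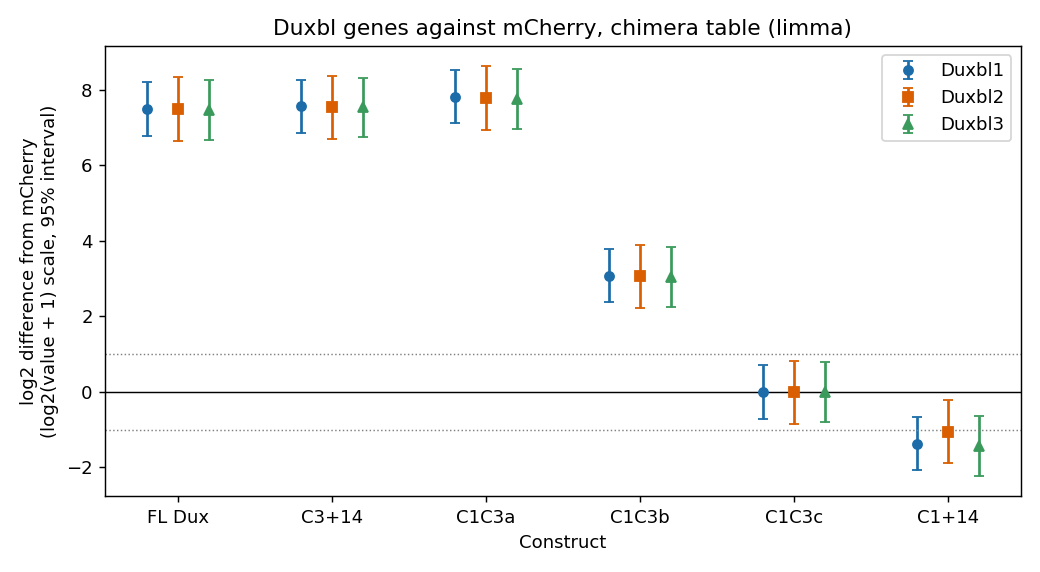
log2 difference from mCherry of Duxbl1, Duxbl2 and Duxbl3 for each construct of the chimera table, on the log2(value + 1) scale, with 95% intervals from limma and dotted lines at -1 and 1. The 3 genes sit at 7.47 to 7.81 in FL Dux, C3+14 and C1C3a, near 3.05 in C1C3b, at 0 in C1C3c and between -1.43 and -1.06 in C1+14.

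In the deletion table, Duxbl was high in C12345delt14 and FL Dux and rested on few reads in both groups whose label begins with deltC12345. C12345delt14 had 1835 and 2472 reads of Duxbl1, 2035 and 2803 of Duxbl2, and 2021 and 2787 of Duxbl3. DeltC12345+14 had 7 and 5 reads of Duxbl1, 13 and 6 of Duxbl2, and 12 and 6 of Duxbl3. DeltC12345delt14 had 8 and 3, 9 and 5, and 9 and 3 reads in the same order. The libraries of these last groups overlapped for every copy and none came near those of FL Dux or C12345delt14. The sums were 8413 ± 531 normalised reads in FL Dux, 6672 ± 87.5 in C12345delt14, 17.3 ± 7.24 in deltC12345+14 and 15.2 ± 8.65 in deltC12345delt14 (SD, n = 2). This table was scaled separately, so the FL Dux values differ from those above although the reads are the same.

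Between FL Dux and C12345delt14 none of the 3 genes was called, as was the case for most genes (0.958% of 19833 called in either direction). An unadjusted limma p under 0.05 was reached by 4935 genes, so few calls do not show that the groups were alike. The log2 differences of the Duxbl genes were 0.32 to 0.35 with 95% intervals within -0.73 to 1.37. The C12345delt14 level of their sum was 79.3% ± 1.04 of FL Dux. Both FL Dux libraries were above both C12345delt14 libraries for each copy after the authors' scaling. In RPM, reads scaled to the library's own total, the order was not the same, with sums of 151 and 172 in FL Dux and 169 and 199 in C12345delt14, so the direction depended on the scaling.

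All 3 genes were called higher in FL Dux than in deltC12345+14 (20% of genes called higher), by 8.63 to 8.98, and than in deltC12345delt14 (20.3%), by 8.79 to 9.05. They were likewise called higher in C12345delt14 than in deltC12345+14 (11.5%), by 8.30 to 8.63, and than in deltC12345delt14 (12.6%), by 8.46 to 8.73. For Duxbl1 the FL Dux level after the authors' scaling was 621-fold that of deltC12345+14 (limma adjusted p 1.75e-06). In this table the Duxbl genes passed the filter on low values only through FL Dux and C12345delt14, where they are high. The direction of these calls was thus fixed in advance, and their p-values are no independent support. Between deltC12345+14 and deltC12345delt14, 0% of all genes were called by limma, with 543 of 19833 at an unadjusted p under 0.05, and the counts were 0 with edgeR and 3 with DESeq2. The log2 differences of the Duxbl genes there were 0.02 to 0.39, with intervals within -0.89 to 1.44. Each of these groups holds 1 library of each type. For Duxbl1 the type A library had 7 reads and the type B library 5 in deltC12345+14, and in deltC12345delt14 they had 3 and 8. With so few reads and 1 library per type, these values cannot show a difference between types or its absence.

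Sums in RPM place all 10 groups side by side without a test. They were 226 and 204 in C1C3a, 203 and 195 in C3+14, 169 and 199 in C12345delt14, and 151 and 172 in FL Dux. C1C3b followed with 20.2 and 9.98. The remaining groups were at 2.68 and 1.38 in C1C3c, 1.54 and 1.88 in mCherry, 0.975 and 0.556 in deltC12345+14, 0.951 and 0.381 in deltC12345delt14, and 0.541 and 0.943 in C1+14. The first 4 groups lie close together, and FL Dux is the lowest of them on this scale, with libraries that overlap those of C12345delt14. That order depends on the scaling, since on the authors' scale FL Dux was above C12345delt14. At 32168300 and 31203170 total reads, 1 read was worth 1.47 normalised reads in FL Dux replicate 1 and 0.660 in mCherry replicate 1. Groups are therefore not ranked by RPM.

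Genes that stand among the Duxbl copies did not rise with them. Each copy sits in a repeated block with a Cphx homeobox gene and a Tmem254 gene. Cphx3 (chr14:26082297-26235744, plus strand) spans the whole of Duxbl2, and whether counting used strand or overlap is not given in the sources used here. The 3 Cphx genes were called lower than in mCherry in all 6 constructs, with log2 differences of -4.70 to -4.48 in FL Dux and of -2.08 to -1.75 in C3+14. Cphx1 had 44 and 41 reads in mCherry, 0 and 1 in FL Dux, 2 and 3 in C1+14, 3 and 2 in C1C3c, 8 and 3 in C1C3b, 1 and 5 in C1C3a, and 6 and 4 in C3+14. Every construct was thus below mCherry, C1C3c and C1+14 included, where Duxbl was not higher. With DESeq2, 1 of the 3 Cphx genes was called in C3+14, and all 3 in each other construct.

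Tmem254a, Tmem254b and Tmem254c, which code for a membrane protein, were called lower than in mCherry in 5 constructs and not in C1+14. Tmem254b had 239 ± 1.34 normalised reads in mCherry, 117 ± 51.1 in FL Dux and 50.5 ± 10.4 in C1C3b (SD, n = 2). Its log2 difference was -1.09 in FL Dux (limma adjusted p 0.0139) and -2.23 in C1C3b (9.44e-05). Like the Duxbl copies, the Tmem254 rows had near-equal reads, for example 367, 363 and 363 in mCherry replicate 1. Plac9a and Plac9b were called lower only in C1C3b, by -1.19 and -1.06 (limma adjusted p 0.0430 and 0.0495), and with DESeq2 in none.

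Of the other annotated genes that start within 100 kb of a Duxbl start, 5 were tested. Gm18578, a processed pseudogene beyond Duxbl3, had 17 and 23 reads in FL Dux, 4 and 4 in C3+14, 3 and 2 in C1C3a and 0 in both mCherry libraries. It was called higher than in mCherry in these 3 constructs, but it passed the filter on low values through FL Dux alone, and its C1C3a reads are at or below the floor of 3 reads. Gm34059, a lincRNA, had 115 and 135 reads in C1C3a against 20 and 10 in mCherry, at 3.75 on the log2 scale (limma adjusted p 1.13e-05), was called higher in C3+14 and FL Dux, and was called lower in C1C3b, where Duxbl was higher. Gm2260, Gm2274 and Gm9780, which start between Duxbl1 and Duxbl3, were called in none of the 6 constructs. The rise at Duxbl therefore did not extend to most genes of the region.

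**Figure D4:**
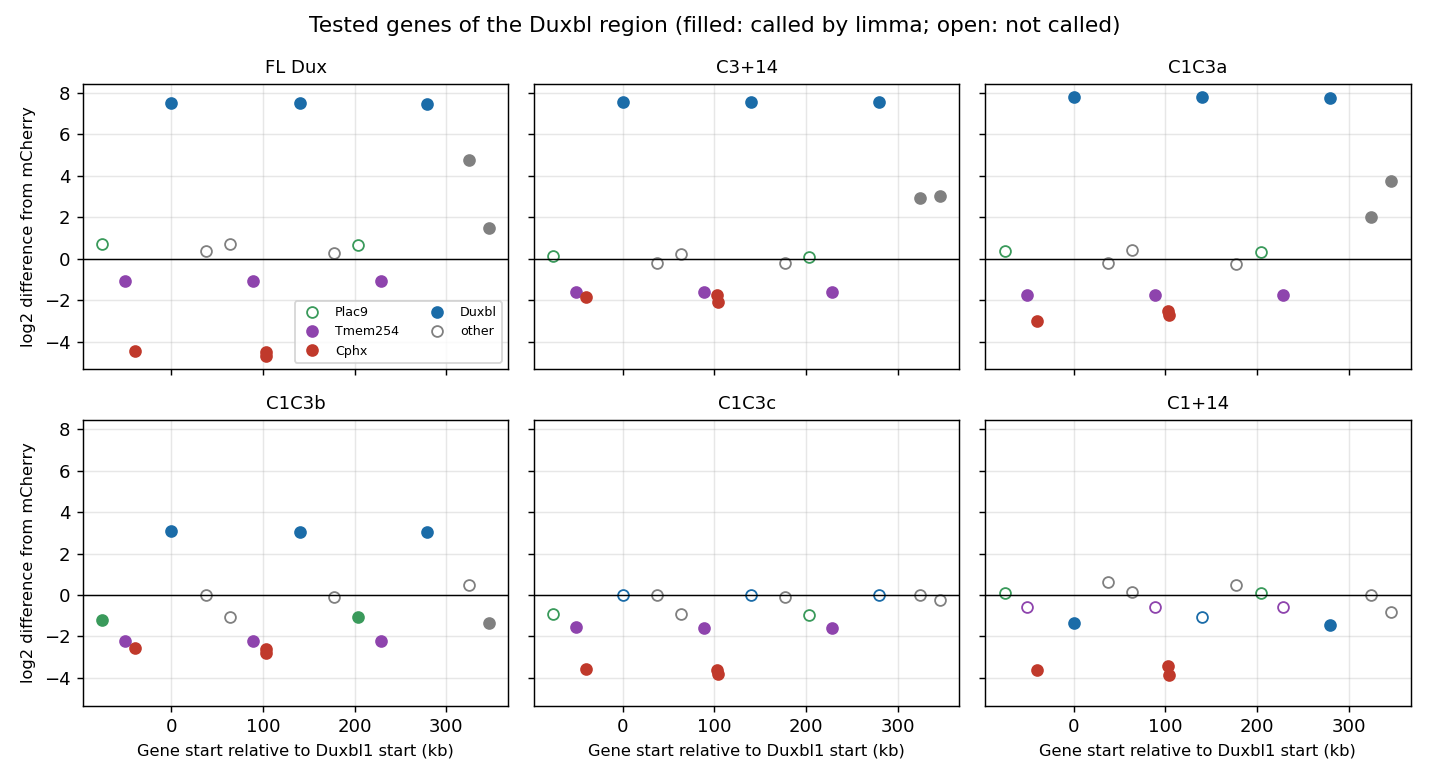
log2 difference from mCherry of each tested gene of the Duxbl region, in 1 panel per construct, against the distance of the gene's start from the Duxbl1 start in kb. Filled points were called by limma and open points were not. The 3 Duxbl points are at 7.47 to 7.81 in FL Dux, C3+14 and C1C3a and near 3.05 in C1C3b, and the Cphx and Tmem254 points lie below 0 in every panel.

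Other homeobox genes of the early embryo changed in both directions. Of 14 listed genes 12 were tested, since Duxf3 and Gm4981 had no reads. Against mCherry, FL Dux had 6 called higher and 4 lower, C1C3a 6 and 5, C3+14 6 and 3, C1+14 1 and 4, C1C3c 1 and 5, and C1C3b 2 and 5, with the 3 Cphx genes among the lower ones each time. Of all 21584 tested genes, those called in either direction numbered 9531 in FL Dux, 10020 in C1C3a and 10205 in C3+14. They numbered 3953 in C1+14, 6221 in C1C3c and 9650 in C1C3b. The list's median log2 difference was 1.55 in FL Dux (1.25 with genes at the floor of 3 reads set to their bound), against 0.09 over all tested genes. In C1C3b it was -0.07, and -2.06 at the bound. Obox1, Obox2, Obox3 and Obox5, which belong to an oocyte and early-embryo homeobox family and are named here after their values were seen, were called higher in FL Dux, C3+14 and C1C3a, as Duxbl was. None of these had reads in mCherry, so they passed the filter on low values only through constructs where they were higher. Obox1 had 80 and 111 reads in FL Dux, 90 and 91 in C3+14, 86 and 106 in C1C3a, 0 and 2 in C1C3b, and 0 in both libraries of C1C3c, C1+14 and mCherry. In C1C3b, where Duxbl was called higher, only Obox3 of these 4 was, on 3 and 5 reads. How reads shared within this family were counted is not given in the sources used here. Obox6, an oocyte and early-embryo homeobox gene, was higher in every construct and, unlike Duxbl, in C1C3c and C1+14 too. It had 27 and 20 reads in mCherry, 97 and 78 in C1C3c and 52 and 102 in C1+14, the last at 1.44 (SE 0.30, limma adjusted p 0.00314). Crxos, another oocyte and early-embryo homeobox gene, had 748 ± 5.37 normalised reads in mCherry and 988 ± 90.9 in FL Dux (SD, n = 2), which was not called, and 281 ± 4.45 in C1C3b, which was called lower at -1.41 (adjusted p 0.00421).

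Genes of the 2-cell embryo gave a similar order of constructs to Duxbl, with wider distances between them. Of 20 listed genes 19 were matched and tested, and 18 were called higher than in mCherry in each of FL Dux, C3+14, C1C3a and C1C3b, 14 in C1C3c and 7 in C1+14. With 0 reads in both mCherry libraries, 14 of the 19 passed the filter on low values only through constructs where they were higher. For these the direction of a call was fixed in advance, so the counts are no independent support. Of all tested genes, 24.5% were called higher in FL Dux, 29.6% in C3+14, 27.4% in C1C3a and 27.6% in C1C3b. In either direction 28.8% were called in C1C3c, and 3953 of 21584 in C1+14. Zfp985, named after its values were seen, was called lower, at -1.57 in FL Dux (limma adjusted p 0.00181) and -1.30 in C1+14 (0.0142). The list's median log2 difference was 14.67 in FL Dux, 10.61 in C1C3b, 4.51 in C1C3c and 0.76 in C1+14, and 13.50, 9.91, 5.00 and 0.89 with genes at the floor set to their bound. Duxbl differed in having reads in mCherry, where 14 of the 19 2-cell genes had 0 reads in both libraries. It was also not called higher in C1C3c, where most of the list was. The list's median in C1C3c was 0.0868% of FL Dux. That is below the Duxbl sum in mCherry (0.518%) and below the SD of that sum in C1C3c (0.257%). A Duxbl rise of that share could therefore not have been seen. C1C3c is also type A and mCherry type B, so type and construct cannot be told apart there. In C1C3b the Duxbl sum was at 4.90% of FL Dux, beside a median of 1.53% for the 2-cell genes, of which 12 were below Duxbl. The list counts the copies of the Zscan4 and Usp17l families as separate genes, which may share reads, so its counts and medians lean on these families. The Zscan4 copies were all below Duxbl in C1C3b, at 0.828% to 1.53%. In C1C3a the Duxbl sum was at 122.9% beside a median of 86.8%. In C3+14, which is type B while FL Dux is type A, it was at 104% beside 149%.

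The named 2-cell genes differed among themselves as much as from Duxbl. Zfp352, a zinc finger gene of the 2-cell stage, was at 422% of FL Dux in C1C3a and at 0.672% in C1C3b. Usp17lc, a deubiquitinase gene, was at 245% in C1C3a and 10% in C1C3b. Zscan4c, which codes for a telomere-associated zinc finger protein, was at 33.0% and 1.44%. Tcstv3, a 2-cell gene of unclear function, was at 87.3% and 0.562%. Duxbl, at 122.9% and 4.90%, lay between these. In the deletion table, 18 of the 19 genes were called higher in FL Dux than in deltC12345+14 (20% of all tested genes) and in deltC12345delt14 (20.3%). A listed gene without reads in the deltC12345 groups could pass the filter only through FL Dux and C12345delt14. Between FL Dux and C12345delt14, 0 of the 19 were called, where few genes were called at all (0.958%). An unadjusted limma p under 0.05 was still reached by 4935 of 19833 genes there. The list's median log2 difference there was nevertheless 1.42, against 0.04 over all tested genes and 0.32 to 0.35 for the Duxbl genes. Zscan4c was at 35.2% ± 11.1 of FL Dux in C12345delt14 (SD, n = 2), with a log2 difference of 1.48 between the groups (95% interval 0.07 to 2.89, limma adjusted p 0.183). Tcstv3 was at 19.3% ± 5.36 (SD, n = 2), with 2.19 (1.05 to 3.34, adjusted p 0.0692), beside 79.3% for Duxbl.

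**Figure D5:**
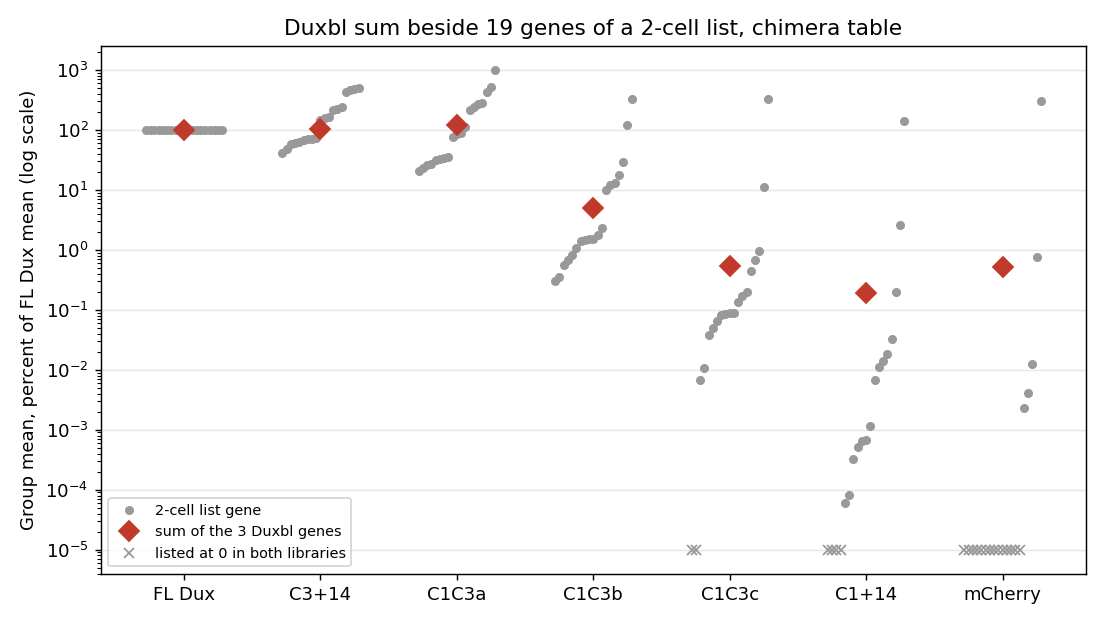
Group means in the chimera table as percent of the FL Dux mean on a log scale, for the sum of the 3 Duxbl genes (diamonds) and for 19 genes of the 2-cell list (points, spread sideways in order of their value). Crosses at the bottom edge mark genes with 0 reads in both libraries, which have no place on a log axis. Duxbl is at 4.90% in C1C3b and between 0.193% and 0.540% in C1C3c, C1+14 and mCherry.

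By the likeness of its pattern, the Duxbl sum was set beside 21581 other genes over the 14 libraries of the chimera table, on log2(value + 1). Of the genes reported, Pearson's r was highest for Hist1h4j (0.993, Spearman's rho 0.978), Gm8885 (0.992, rho 0.921), Rpl34-ps1 (0.992, rho 0.921) and Hist1h4k (0.991, rho 0.974). Rpl34-ps1 and Hist1h4k share most of their 50-base stretches with other genes (100% and 70.4%). Among genes that share under 50%, Hist1h2bp (r 0.988) and BC147527 (r 0.988) were among the 5 with the highest r. Hist1h4j, a histone H4 gene, had mean levels of 5.84 in mCherry and 2.59 in C1+14, then 7.64 in C1C3c, 19.9 in C1C3b, 240 in FL Dux, 235 in C3+14 and 332 in C1C3a, so it too was lowest in C1+14. Such likeness is common here, since 688 genes had r of at least 0.95. The libraries share their groups and their scaling, so r describes this set of libraries only.

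Markers of cell states also changed against mCherry, in C1C3c and C1+14 too, where Duxbl was not higher. The part of these changes in the Duxbl result was not tested. Of the 8 embryonic stem cell markers FL Dux had 6 called lower than in mCherry, C1C3b 6, C3+14 5, C1C3c 4, C1C3a 3 and C1+14 1. Of the 5 primitive endoderm markers (Gata6, Gata4, Sox17, Pdgfra and Foxa2) C1C3b had 5 called higher, C1C3a and C3+14 4 each, C1C3c 3, C1+14 2 and FL Dux 1. Of all tested genes, 27.6% were called higher in C1C3b, 27.4% in C1C3a, 29.6% in C3+14 and 24.5% in FL Dux. In either direction, genes called of 21584 numbered 9531 in FL Dux, 9650 in C1C3b and 10205 in C3+14. They numbered 6221 in C1C3c, 10020 in C1C3a and 3953 in C1+14, where 5.95% were called lower. The other shares in 1 direction are not given, so no marker count is read as above that of all genes. The summed level of the endoderm markers was 92.8 to 121 normalised reads in FL Dux and 593 to 626 in C1C3b, against 58.1 to 62.6 in mCherry. The summed level of 5 trophectoderm markers was 174 to 282 in FL Dux, with Cdx2 and Elf5 at 3 reads or fewer, against 1750 to 1843 in mCherry. In C3+14 the endoderm sum was 601 to 625.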

How the data were processed

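The deposited values are a signal that the authors made by dividing each library's reads per gene by its size factor, as the values show, in 2 tables. All values above 0 were whole multiples of 1 step per column (100%, within 0.001), so whole reads were recovered. Per the submitters' processing notes, Trim Galore 0.5.0, FastQC, DESeq2 and mm10 were used. The aligner, the counting program and the handling of multi-mapping reads are not given in the sources used here. The FL Dux reads of both tables differed at 0 genes. Symbols came from GENCODE M21 (99.4% of 55487 identifiers).

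The main test was limma 3.58.1 (R 4.3.3) on log2(value + 1), with a trend, for genes at 10 or more in 2 libraries (21584 and 19833 genes), all groups of a table sharing the spread. The log2(value + 1) scale understates changes of low genes. All 3 Duxbl genes passed in both tables, in the deletion table only through FL Dux and C12345delt14, where they are high. Counts on recovered reads (edgeR 4.0.16, DESeq2 1.42.0) were alternatives. Scripts were tested on simulated data. No replicate pair was a duplicated library (chi-square per gene 3.34 to 80.3). An exact permutation test of 2 against 2 libraries cannot reach p below 0.333, so none was used. The limma fit was also run with the 3 rows replaced by their sum, as an alternative, and no p-value of a sum is printed here. Sequences are from the GENCODE M21 transcripts. A floor of 3 reads per library covers counting error only.

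The members, lists and tests were chosen with earlier results of these data known. Named genes were, by rule, the members, the 8 listed and all other tested genes of the region, up to 4 genes each of the homeobox and 2-cell lists, and the 5 genes most like the Duxbl sum, of which 1 is not reported here.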

Additional observations from a re-analysis of the deposited data

How the results depend on the processing

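Of 27 comparisons, 25 kept the same number of called Duxbl genes in every alternative run, and 358 of 368 alternatives were within 1.5 times of the value reported. The exceptions were the comparisons of C1+14 with C1C3c and with mCherry, which rest on 4 to 23 reads per gene and library. For C1C3c against C1+14 (2 called) the count was 0 with a pseudocount of 8, 0 with quantile normalization, 0 with edgeR and 1 when only groups of 1 library type were fitted, an alternative chosen after seeing the data. Leaving out 1 library gave 0 to 2, with 0 without C1C3c replicate 1 and 0 without C1+14 replicate 1. For C1+14 against mCherry (2 called) it was 0 with a pseudocount of 8 and 0 with edgeR, and leaving out 1 library gave 1 to 3, with 1 without C1+14 replicate 1 and 1 without mCherry replicate 2. No log2 difference of a called gene reversed. Fits of only the 2 groups compared gave no value for C1C3c against C1+14 and for deltC12345+14 against deltC12345delt14, because no Duxbl gene passed the filter there. Quantile normalization moved the median of all genes by -0.48 to 0.11 on the log2 scale, depending on the comparison.

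The replicate numbers were not taken to pair the samples. Deviations of same-numbered samples correlated at -0.10 to 0.05 in the chimera table and -0.57 to 0.14 in the deletion table. The -0.57 was between deltC12345+14, whose type A library is replicate 1, and deltC12345delt14, whose type A library is replicate 2. Such correlations cannot show whether samples were paired. With the replicate block the count of Duxbl genes was unchanged in all 27 comparisons, 3 of 3 for FL Dux against mCherry and 2 of 3 for C1+14 against mCherry. Over all genes the block moved the calls between FL Dux and C12345delt14 from 190 to 45, while library type as a term moved them to 525. Crossing the numbers of deltC12345+14 and deltC12345delt14 (correlation -0.57) gave 0 calls over all genes, and for FL Dux and C1C3c (-0.10) 9499.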
